A study of Mus musculus with 5 samples.

Results

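Signalling from the FGF and EGF receptors was followed through 10 genes in cultures of mouse neural stem and progenitor cells (NSPCs), which are grown with both factors. The genes were chosen by symbol and by their known roles: the receptors Fgfr1, Fgfr2, Fgfr3 and Egfr, the Sprouty and Spred inhibitors Spry1, Spry2, Spry4 and Spred1, the ERK phosphatase Dusp6 and the transcription factor Etv5. All 10 were listed, among 12588 genes, with 27 of the 22227 listed transcripts. RNA was sequenced from 5 libraries of untreated C57BL/6J cultures, 2 labelled WT (replicates 1 and 4, called WT 1 and WT 4 here) and 3 labelled p75NTR-/- (replicates 1, 2 and 4). WT cultures came from p75NTR+/+ littermates, and the p75NTR-/- label denotes mice deficient for the p75 neurotrophin receptor. Every culture received FGF-2 and EGF, each at 20 ng/ml. The labels give E12.5 embryos as the source, while the study's methods describe adult NSPCs, and these data do not decide between them. The study describes the NSPCs as independent preparations, and the labels tie no library to an animal or litter.

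Ngfr, the gene of the p75 neurotrophin receptor, went against the labels. It had 0.98 and 2.08 normalized counts in WT 1 and WT 4, and 9.89, 141 and 251 normalized counts in p75NTR-/- 1, 2 and 4. A normalized count is a transcript count divided by the size factor of its library, and 3 counts correspond to 2.94 to 3.60 normalized counts. Against 3 counts per WT library, the mean Ngfr level under the p75NTR-/- label was at least 44.2-fold higher. Libraries are therefore named by their labels throughout, and each direction is that between the labels. Library totals ranged from 11688211 to 14452396 counts. WT 4 and p75NTR-/- 4 were the closest pair of libraries, with a root mean square difference of 0.22 on the log2 scale. This was taken over 10786 genes with a mean of at least 50 normalized counts. On the same measure p75NTR-/- 1 and 2 differed by 0.35, and the other 8 pairs of libraries differed by 0.59 to 0.68. WT 1 thus had no close partner. All 13 neural stem and progenitor markers examined were listed, with a summed level of 8302 to 9685 TPM, a level scaled to transcript length and library size. Fabp7 alone held 6270 to 6927 TPM of this sum, and single markers varied more, with Hes5 at 5.88 to 128 TPM, Nes at 75.3 to 203 TPM and Olig2 at 101 to 297 TPM. None of 5 microglial markers was listed, and the endothelial and mesenchymal markers summed to less than 1 TPM in every library.

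FGF receptors are tyrosine kinases with 3 immunoglobulin-like domains outside the cell, and the second part of the third domain is encoded by either of 2 alternative exons, IIIb or IIIc. The choice sets which FGFs bind: FGF-2 activates the IIIc forms, which are typical of neural and mesenchymal cells, while IIIb forms are typical of epithelia. Active FGF and EGF receptors signal through Ras to the kinase ERK, and ERK signalling in turn induces its own inhibitors, the Sprouty and Spred proteins and the phosphatase DUSP6, together with ETS factors such as ETV5. In the brain FGFR3 is known from radial progenitors and astrocytes, and EGFR marks progenitors that divide in response to EGF.

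The alternative exons of Fgfr3, the receptor gene with the widest span between libraries, are printed because they define the forms counted here. They were read from GENCODE transcripts of the build GRCm38, 5′ to 3′ on the plus strand. The IIIb exon (chr5:33731281-33731431) has 151 bases and the IIIc exon (chr5:33732117-33732261) has 145 bases. Both are coding exons of the third immunoglobulin-like domain.
Fgfr3 IIIb: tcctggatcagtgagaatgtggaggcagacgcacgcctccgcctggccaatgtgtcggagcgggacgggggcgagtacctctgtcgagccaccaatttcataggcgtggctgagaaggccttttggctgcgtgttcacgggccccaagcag
Fgfr3 IIIc: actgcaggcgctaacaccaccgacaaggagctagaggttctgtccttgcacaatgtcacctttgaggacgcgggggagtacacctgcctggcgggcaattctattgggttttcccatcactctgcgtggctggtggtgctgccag
The 2 exons differ in length and in sequence, which separates reads over them. Outside the exons that distinguish forms, many listed transcripts of one receptor overlap almost entirely, and the assignment of reads among them is an estimate of the authors' quantification.

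All 10 genes were detected in every library. On the TPM scale, which adjusts for transcript length, the median level over the 5 libraries was 166 for Fgfr1, 142 for Etv5, 127 for Spry2, 99.7 for Fgfr3 and 97.0 for Egfr. It was 83.7 for Spred1, 68.5 for Dusp6, 41.3 for Spry1, 22.3 for Fgfr2 and 20.3 for Spry4. The ranges of neighbours in this order overlapped at every step, so the order of neighbours is not separated from the spread between libraries. Fgfr1 owed its first place to Fgfr1-212, a transcript of 453 bases that carried 78.1 to 114 TPM on only 62.3 to 89.1 normalized counts. By normalized counts per kilobase, Fgfr3 came first with a median of 1326, followed by Spry2 at 1090 and Fgfr1 at 900.0. Fgfr2, at 10.3 to 28.9 TPM, and Spry4, at 4.70 to 29.0 TPM, took the last 2 places on both scales.

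Between the labels, none of the 10 genes passed the criteria of the study's methods (mean of at least 50 normalized counts, fold change of at least 1.5, adjusted p under 0.05), which 0.00794% of all genes passed. None had an unadjusted p under 0.05 in limma either, against 1.24% of the 10786 genes with a mean of at least 50. The difference was positive for 7 genes and negative for 3, with a median log2 difference of 0.26 against 0.016 over those genes. The labels did not overlap for Spry1, which was higher under the p75NTR-/- label, as were 7.76% of those 10786 genes, and for Fgfr3, which was lower, as were 6.96%. That is 2 of 10 genes, where 14.7% of all these genes did not overlap in either direction. Differences are limma estimates on log2(gene sum + 1), which makes differences of low genes appear smaller than they are, and the gene sum adds up all listed transcripts of a symbol. An exact test of 2 against 3 libraries cannot give a p under 0.1.

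**Figure D1:**
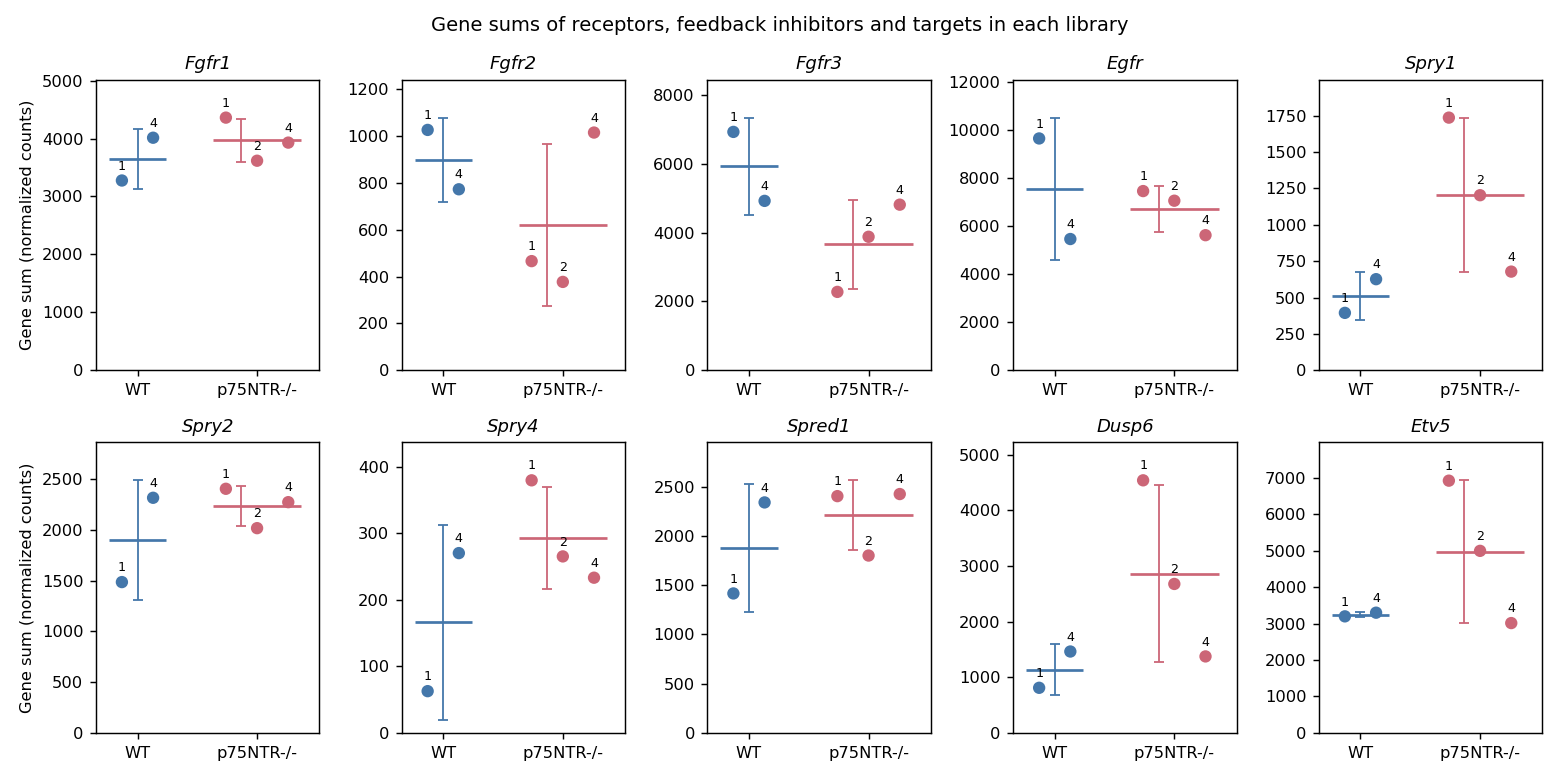
Gene sums of the 10 genes in each library, in normalized counts on linear axes that start at 0. Points are libraries with their replicate number, horizontal lines are means and vertical bars are SDs (n = 2 for WT, n = 3 for p75NTR-/-). In Spry1 all p75NTR-/- points lie above both WT points, in Fgfr3 all lie below, and in the other 8 genes the labels overlap.

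Fgfr3 showed the clearest difference among the receptors, while Fgfr1 was the steadiest of the 10 genes. The Fgfr3 gene sum was 6936 normalized counts in WT 1 and 4929 in WT 4, and 2280, 3884 and 4818 in p75NTR-/- 1, 2 and 4. Each library labelled p75NTR-/- lay below both WT libraries, but p75NTR-/- 4 and WT 4 were nearly equal. The log2 difference was -0.74 ± 0.38 (SE; limma adjusted p = 0.93). Within number 1 Fgfr3 was lower by a log2 difference of -1.60, and within number 4 the difference was -0.03. Without both libraries numbered 4, which leaves WT 1 as the only WT library, the difference was -1.22 (limma adjusted p = 0.23).

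Fgfr2, the receptor with the lowest level, followed a related but not identical order. Its gene sum was 1026 and 773 normalized counts in WT 1 and WT 4, and 466, 377 and 1015 in p75NTR-/- 1, 2 and 4. The low values were those of p75NTR-/- 1 and 2, while p75NTR-/- 4 lay between the WT libraries. The log2 difference was -0.66 ± 0.47 (SE; limma adjusted p = 0.93), and it was -1.14 within number 1 and 0.39 within number 4. Leaving out both libraries numbered 4 gave -1.29.

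Fgfr1 ranged only from 3276 normalized counts in WT 1 to 4362 in p75NTR-/- 1, a 1.33-fold span, with 4014 in WT 4 and 3617 and 3930 in p75NTR-/- 2 and 4. The labels overlapped. Its log2 difference was 0.13 with a 95% interval from -0.35 to 0.61 (limma), and 72.0% of the 10786 genes had a wider span between libraries. Its sign depended on WT 1, without which the difference was -0.020.

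Egfr had 9641 normalized counts in WT 1 and 5457 in WT 4, against 7452, 7051 and 5617 in p75NTR-/- 1, 2 and 4. The WT libraries thus held both the highest and the lowest value. The log2 difference was -0.12 ± 0.30 (SE; limma adjusted p = 0.96), and it became 0.29 without WT 1. It had 2 listed forms, the full receptor Egfr-201 (1210 codons, 28 exons) and Egfr-202, whose 655 codons are too few to reach the kinase domain. Egfr-202 made up 20.2 and 25.2% of the Egfr counts in WT 1 and WT 4 and 21.2, 17.3 and 26.5% in p75NTR-/- 1, 2 and 4. Its share was thus highest in the libraries numbered 4 under both labels. Each form has exonic bases found in no other listed transcript, 8011 for Egfr-201 and 746 for Egfr-202.

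Sorted by the exon that each listed transcript holds, the FGF receptors of these cultures were mostly IIIc forms. IIIc transcripts held 94.9 to 97.8% of the counts of Fgfr1, 82.8 to 90.8% of those of Fgfr2 and 82.5 to 97.7% of those of Fgfr3. With Fgfr3 more variable than Fgfr1, the make-up of the IIIc pool differed between libraries. Fgfr3 supplied 64.5 and 53.1% of the IIIc TPM in WT 1 and WT 4, and 31.1, 50.6 and 51.7% in p75NTR-/- 1, 2 and 4. Fgfr1 supplied 27.7 and 40.1% in the WT libraries and 63.2, 44.9 and 39.4% in the others. In p75NTR-/- 1 Fgfr1 was the main IIIc receptor, whereas in the other 4 libraries Fgfr3 was. Fgfr2 supplied 4.44 to 8.91%. The summed IIIc level was 213 and 181 TPM in WT 1 and WT 4, and 124, 147 and 180.0 TPM in p75NTR-/- 1, 2 and 4. It was highest in WT 1 and nearly equal in the libraries numbered 4.

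**Figure D2:**
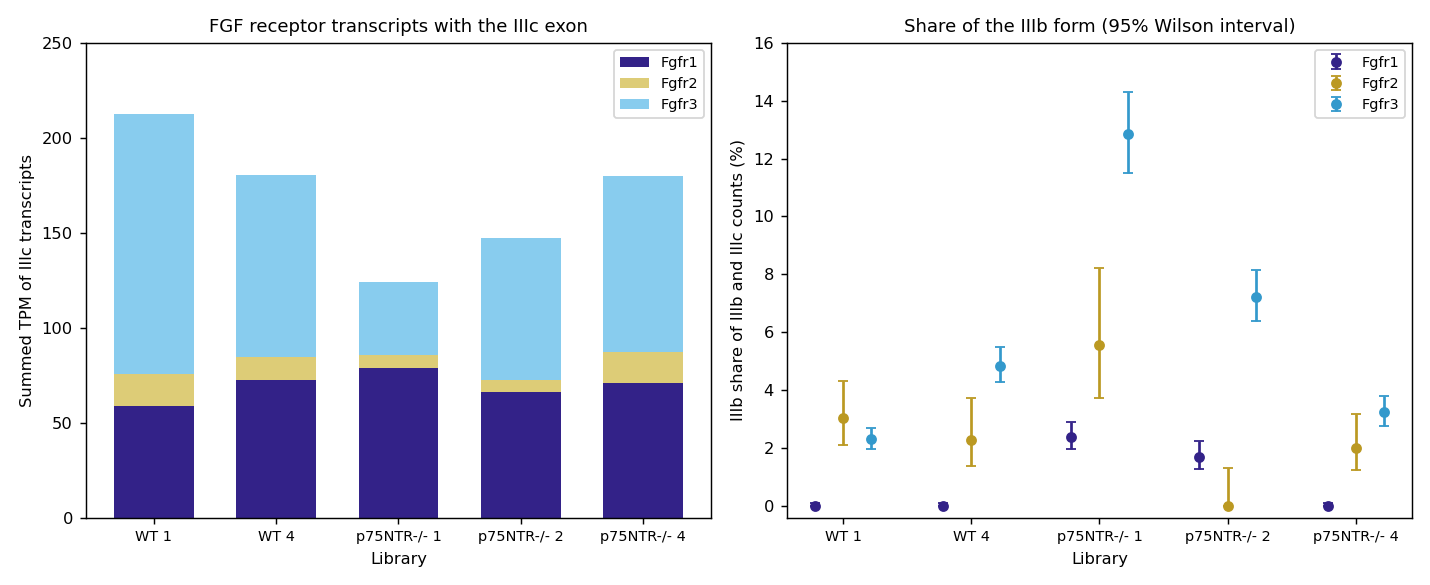
Left, summed TPM of listed transcripts with the IIIc exon in each library, stacked by receptor gene. Right, share of IIIb transcripts among IIIb and IIIc counts (%), with 95% Wilson intervals. The Fgfr3 part of the bar is smallest in p75NTR-/- 1 (31.1% of the bar), the library in which the IIIb share of Fgfr3 is largest (12.8%).

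The IIIb share, counted over transcripts that hold 1 of the 2 exons, was at most 12.8% in each of the 3 genes. For Fgfr3 it was 2.31% (95% Wilson interval 1.98 to 2.68) in WT 1 and 4.85% (4.28 to 5.50) in WT 4. In p75NTR-/- 1, 2 and 4 it was 12.8% (11.5 to 14.3), 7.22% (6.38 to 8.17) and 3.24% (2.76 to 3.79). The labels overlapped, since p75NTR-/- 4 lay below WT 4. Computed from TPM, the share was 5.19% in WT 1 and 11.8% in p75NTR-/- 2, so that WT 1 was no longer the lowest library, and 4.86, 12.9 and 3.23% in WT 4 and p75NTR-/- 1 and 4. The largest share was that of p75NTR-/- 1, where the IIIc transcripts were lowest. The full-length IIIb transcript Fgfr3-203 itself had 112 and 239 normalized counts in the WT libraries and 277, 234 and 154 in the others. For Fgfr1, IIIb counts were 0 in WT 1, WT 4 and p75NTR-/- 4, with 103 counts (2.40%) in p75NTR-/- 1 and 50 counts (1.70%) in p75NTR-/- 2. These counts belong to Fgfr1-213, which shares every base with other listed transcripts, and Fgfr1-208, annotated with both exons, was left out. In a library without counts the upper end of the Wilson interval was at most 0.12%. For Fgfr2 the IIIb share was 3.04 and 2.29% in the WT libraries and 5.57, 0 and 2.00% in p75NTR-/- 1, 2 and 4. These intervals cover counting error only.

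A further exon of 267 bases in Fgfr1 and Fgfr2 and 270 bases in Fgfr3 encodes the first immunoglobulin-like domain, and forms that skip it are known for FGFR1 and FGFR2. Among the IIIb and IIIc counts, forms without it made up 29.2 to 43.9% in Fgfr2 but at most 6.90% in Fgfr1. In Fgfr2 the main form with it was Fgfr2-215 (840 codons, 18 exons) and the main form without it was Fgfr2-207 (723 codons, 16 exons). The 2 forms thus differ in more than this exon. Fgfr2-215 had 663 and 430 normalized counts in the WT libraries and 284, 192 and 545 in p75NTR-/- 1, 2 and 4. Fgfr2-207 had 245 and 237 in the WT libraries and 102, 150 and 334 in the others. Both forms were lowest in p75NTR-/- 1 or 2. Fgfr2-217, which holds neither the alternative exons nor the first-domain exon and is left out of these shares, had between 34.8 and 118 normalized counts.

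Of the 27 transcripts, 20 had a mean of at least 50 normalized counts and none was called by limma, where 0.0135% of all transcripts were. An unadjusted p under 0.05 was found for 2, Fgfr3-217 and Fgfr1-208, against 3.14% of all transcripts. The labels did not overlap for these 2 and for Spry1-203, the only listed transcript of Spry1, against 16.6% of all transcripts.

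Fgfr3-217 is a fragment of 780 bases and 7 exons that encodes part of the kinase region (260 codons, GRCm38 chromosome 5 from 33733252 to 33734861). It had 0 counts in both WT libraries and 122, 8.41 and 50.7 normalized counts in p75NTR-/- 1, 2 and 4, which correspond to 123, 7 and 48 counts. Its mean under the p75NTR-/- label was 19.9-fold the level of 3 counts per WT library (limma adjusted p = 0.96). The log2 difference was 5.29 on normalized counts and 2.05 on TPM. That ratio rests on p75NTR-/- 1, without which it was 9.75-fold, and p75NTR-/- 2 was close to 3 counts. Only 2 of its bases lie in no other listed transcript of Fgfr3, so that its counts rest on how reads were shared among overlapping forms. Fgfr1-208, the transcript with both alternative exons, is annotated as a target of nonsense-mediated decay and had 42.2 and 56.2 normalized counts in the WT libraries and 30.7, 15.6 and 24.3 in the others. Each p75NTR-/- library was lower, with a log2 difference of -1.07 ± 0.36 (SE; limma adjusted p = 0.96). It shares every base with other listed transcripts of Fgfr1.

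The long IIIc transcripts carried the Fgfr3 difference. Fgfr3-201 (800 codons) had 4318 and 2322 normalized counts in the WT libraries and 1115, 2143 and 2594 in p75NTR-/- 1, 2 and 4. The lowest value was that of p75NTR-/- 1, as in the gene sum. Fgfr3-202, which has 782 codons and 1 exon fewer, had 987 and 1659 normalized counts in the WT libraries and 171, 541 and 1645 in the others, a 9.69-fold span. It made up 35.4 and 35.7% of the IIIc counts in WT 4 and p75NTR-/- 4, and 9.10 to 15.0% in the other 3 libraries. Fgfr3-209 had 1471 and 708 normalized counts in the WT libraries and 595, 912 and 375 in the others. In the libraries numbered 4, Fgfr3-202 thus held a larger and Fgfr3-209 a smaller part than in the other 3, while Fgfr3-201 held 47.1 to 62.3% of the gene sum with no such order. None of them has a base of its own among the listed transcripts, and their split is an estimate.

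**Figure D3:**
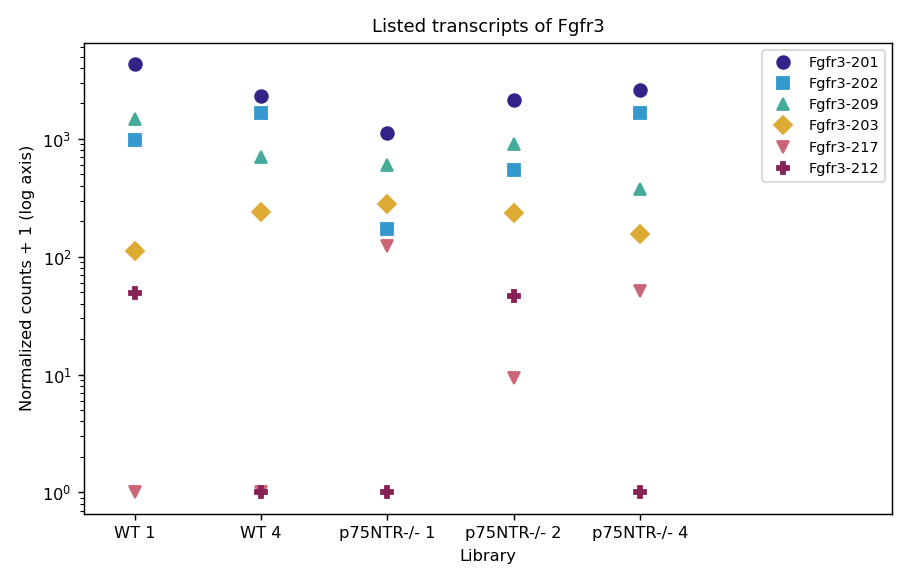
Normalized counts plus 1 of the 6 listed Fgfr3 transcripts in each library, on a log axis; points at 1 are counts of 0. Fgfr3-202 reaches 1659 and 1645 normalized counts in WT 4 and p75NTR-/- 4 and 171 in p75NTR-/- 1, and Fgfr3-217 is at 0 in both WT libraries.

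In Fgfr1, Fgfr1-201 (822 codons) and Fgfr1-202 (820 codons) held nearly the whole gene sum, with 40.5 to 57.7% and 32.8 to 55.3%. Fgfr1-201 had its largest part in p75NTR-/- 1 and Fgfr1-202 in p75NTR-/- 4. Neither showed a difference between the labels, with log2 differences of 0.15 ± 0.29 and 0.01 ± 0.29 (SE; limma adjusted p = 0.97 and 1.0). Fgfr1-203, a IIIc form without the first-domain exon, had 128 and 0 normalized counts in the WT libraries and 191, 98.5 and 78.2 in the others. Fgfr1-213, the IIIb form, had 0 in both WT libraries, 102 and 60.1 in p75NTR-/- 1 and 2, and 0 in p75NTR-/- 4. Its labels overlapped at 0.

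Among the inhibitors, Spry1 had the largest difference relative to its spread. Sprouty proteins are membrane-associated inhibitors that act between the receptors and ERK. Spry1 had 395 and 626 normalized counts in WT 1 and WT 4, and 1737, 1204 and 678 in p75NTR-/- 1, 2 and 4. All 3 libraries labelled p75NTR-/- lay above both WT libraries, p75NTR-/- 4 by a narrow margin. The log2 difference was 1.18 ± 0.46 (SE), a 2.36-fold ratio of means, with a 95% interval from -0.01 to 2.36 (limma adjusted p = 0.93). Within number 1 the ratio was 4.40-fold and within number 4 it was 1.08-fold. Without both libraries numbered 4 the log2 difference was 1.87 (limma adjusted p = 0.15).

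Spry4 spanned the widest range of the 10 genes. It had 62.8 normalized counts in WT 1 and 270 in WT 4, and 380.0, 266 and 233 in p75NTR-/- 1, 2 and 4. The range was set by WT 1, since WT 4 lay inside that of the libraries labelled p75NTR-/-. The log2 difference of 1.13 ± 0.65 (SE; limma adjusted p = 0.93) was reduced to 0.084 without WT 1. Across the 10786 genes, 1.68% had a wider span than the 6.05-fold span of Spry4.

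Spry2 and Spred1 were higher in level, and their differences were small. Spry2 had 1487 and 2318 normalized counts in the WT libraries and 2406, 2018 and 2275 in p75NTR-/- 1, 2 and 4. Spred1, a membrane-bound inhibitor of Ras activation, had 1415 and 2339 in the WT libraries and 2402, 1800 and 2423 in the others. In both genes WT 1 was the lowest library and WT 4 lay within the other label's range. The log2 differences were 0.26 ± 0.25 for Spry2 and 0.27 ± 0.29 for Spred1 (SE; limma adjusted p = 0.93 for both). Without WT 1 they were -0.058 and -0.096. Spred1-201 held 97.0 to 99.2% of the Spred1 counts.

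Dusp6, the cytoplasmic phosphatase that removes the activating phosphates from ERK, had the largest estimated difference of the 10 genes. It had 811 and 1463 normalized counts in WT 1 and WT 4, and 4539, 2677 and 1374 in p75NTR-/- 1, 2 and 4. The labels overlapped, because p75NTR-/- 4 lay just below WT 4. The log2 difference was 1.23 ± 0.57 (SE; limma adjusted p = 0.93). It amounted to 2.48 within number 1, a 5.60-fold ratio, and to -0.09 within number 4. Without both libraries numbered 4 it was 2.10 (limma adjusted p = 0.16).

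Etv5, an ETS transcription factor induced by FGF signalling, was nearly equal in the WT libraries, at 3197 and 3298 normalized counts. It had 6919, 4994 and 3013 in p75NTR-/- 1, 2 and 4. The first 2 of these lay above both WT libraries and the last lay below them. The log2 difference was 0.53 ± 0.38 (SE; limma adjusted p = 0.93), with 1.11 within number 1 and -0.13 within number 4. Etv5-201 held 93.8 to 96.3% of the counts, and the short Etv5-204 (94 codons) had 104 and 138 normalized counts in the WT libraries and 336, 202 and 128 in the others.

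**Figure D4:**
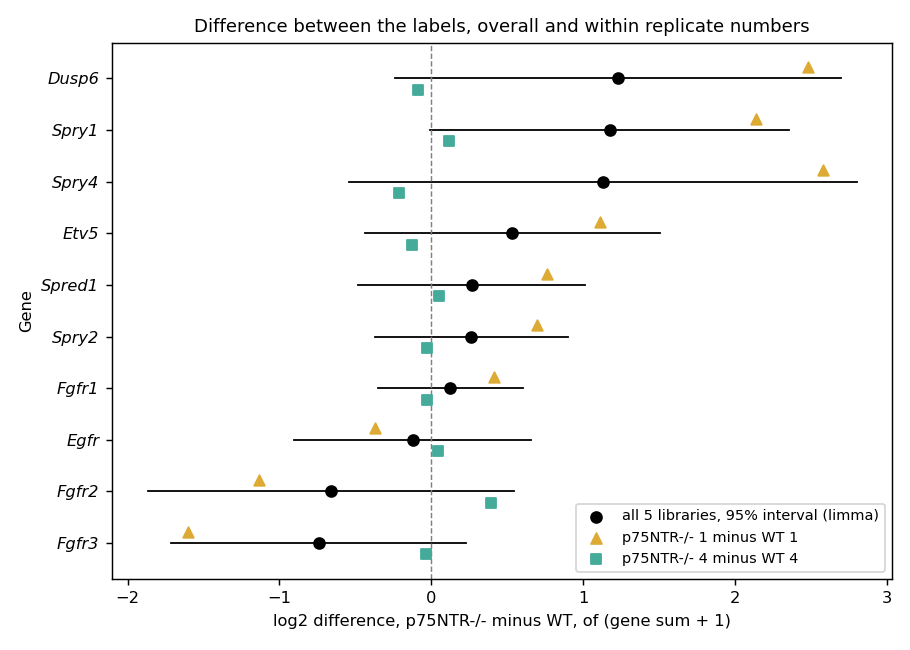
Log2 differences of (gene sum + 1), p75NTR-/- minus WT, for the 10 genes. Black points and lines are limma estimates over all 5 libraries with 95% intervals, triangles are p75NTR-/- 1 minus WT 1 and squares are p75NTR-/- 4 minus WT 4. The triangles range from -1.60 to 2.58, the squares from -0.21 to 0.39, and every interval reaches 0.

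The differences between the labels were thus larger within number 1 than within number 4, each of which holds 1 library per label. Within number 1, Spry4, Dusp6 and Spry1 were 6.05-, 5.60- and 4.40-fold higher and Fgfr3 was at 0.33 times the WT level. Within number 4 all 10 log2 differences lay between -0.21 and 0.39. Over the 10 genes the root mean square log2 difference was 1.55 between WT 1 and p75NTR-/- 1, where all genes gave 0.68, and 0.16 between WT 4 and p75NTR-/- 4, where all genes gave 0.22. Libraries of the same label also differed, by 0.87 between WT 1 and WT 4 and by 0.97 between p75NTR-/- 1 and 4. Between p75NTR-/- 1 and 2 the value was 0.48, and between p75NTR-/- 2 and 4 it was 0.68. When both libraries numbered 4 were left out, a choice made after seeing the data, Fgfr2, Spry1, Spry4 and Dusp6 had an unadjusted p under 0.05 in limma. So did 25.5% of all genes in that fit, which assumes that WT 1 varied like the libraries labelled p75NTR-/-, and none of the 10 genes was called. Whether number 1 or number 4 marks a litter, day or batch is not stated, and its part in these differences was not tested.

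**Figure D5:**
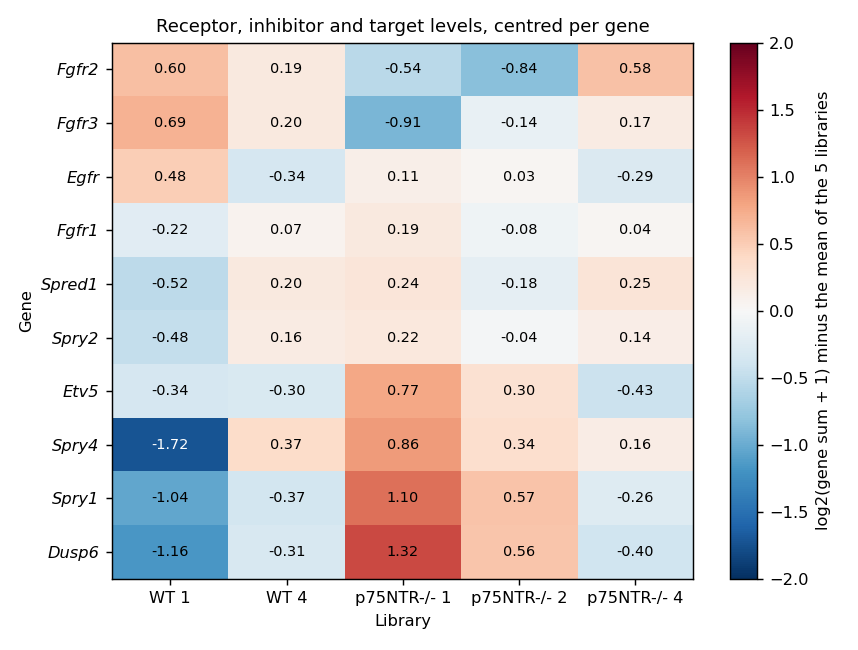
Levels of the 10 genes in each library as log2(gene sum + 1) minus the mean of the 5 libraries (red above, blue below the mean of the gene). Dusp6, Spry1 and Etv5 are highest in p75NTR-/- 1, at 1.32, 1.10 and 0.77, where Fgfr3 is lowest at -0.91, and the columns of WT 4 and p75NTR-/- 4 differ by at most 0.39.

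The genes fell into few patterns over the 5 libraries. Of the 10, 6 spanned at least 2-fold between libraries, as 23.0% of the 10786 genes did. A wider span than that of Dusp6 was found in 2.00% of these genes, than that of Spry1 in 3.27%, than that of Fgfr3 in 7.33% and than that of Fgfr2 in 9.66%. After centring each gene over the libraries, the closest pair was Spry2 and Spred1, with a root mean square difference of 0.086 on the log2 scale. Fgfr1 and Spry2 differed by 0.130, Dusp6 and Spry1 by 0.134, Fgfr1 and Spred1 by 0.18, and Spry1 and Etv5 by 0.37. Egfr and Fgfr1 differed by 0.399, and Fgfr2 and Fgfr3 by 0.403. The receptor Fgfr1 thus lay closer to the inhibitors Spry2 and Spred1 than to any other receptor. The most distant pair was Dusp6 and Fgfr2, at 1.40. In p75NTR-/- 1 the feedback genes Dusp6, Spry1, Spry4, Spry2 and Etv5 had their highest values and Fgfr3 its lowest. Spred1 was highest in p75NTR-/- 4, at 2423 normalized counts against 2402 in p75NTR-/- 1. The receptor Fgfr1 was also highest in p75NTR-/- 1. These distances describe 5 libraries.

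Among all 10786 genes, the nearest profiles to that of Fgfr1 were those of Herc6 (root mean square difference 0.0082) and Usmg5 (0.023). For Fgfr2 they were Pdk4 (0.066) and Stard10 (0.081), for Fgfr3 the DNA demethylase gene Tet1 (0.048) and Tmcc3 (0.087), and for Egfr the histone deacetylase gene Hdac4 (0.026) and Mgea5 (0.038). For Spry2 they were Rad1 (0.036) and Larp1 (0.040), and for Etv5 they were Nkrf (0.051) and Add2 (0.067). Dusp6 had Ehd4 (0.074) and then Spry1 (0.134) as its nearest genes. The nearest to Spry1 were Peg10 (0.105) and Hsd17b7 (0.127), both nearer than Dusp6, so that this closeness was not mutual. Tet1, for comparison with Fgfr3, had 500.5 and 366 normalized counts in the WT libraries and 165, 282 and 380.3 in the others.

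The rest of the pathway was read from 101 further genes, of which 78 were listed and 71 had a mean of at least 50 normalized counts. None was called. The difference was positive for 35 and negative for 36 of the 71, and the labels did not overlap for 7 higher and 5 lower genes, where 14.7% of all genes did not overlap. Of the 23 ligands 8 were listed, and Fgf2, Fgf8 and Fgf9 were not. Nrg1, a neuregulin that binds ERBB3 and ERBB4, lay under the minimum mean and was named after its values were seen. It had 20.6 and 15.6 normalized counts in the WT libraries and 46.5, 28.8 and 40.1 in the others, without overlap, and had the smallest unadjusted p of the 78 genes. Its log2 difference was 1.03 ± 0.27 (SE; limma adjusted p = 0.93), with 1.14 within number 1 and 1.31 within number 4. Fgfr4 and Erbb3 were likewise not listed, which leaves Fgfr1, Fgfr2 and Fgfr3 as the listed FGF receptors with a kinase domain. Fgfrl1, a receptor without a kinase domain, had 505 and 666 normalized counts in the WT libraries and 563, 574 and 744 in the others. Erbb2 was steady, from 272 to 326. Erbb4, a neuregulin receptor, had 897 in WT 1, 320.4 in WT 4 and 235, 349.6 and 395 in p75NTR-/- 1, 2 and 4, so that WT 1 alone stood high.

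The genes of the kinase cascade were divided in direction. All 16 genes of the list were listed, 9 with a positive and 7 with a negative difference, with a median log2 difference of 0.02. Mapk3, which encodes ERK1, had 1617 and 1241 normalized counts in the WT libraries and 1179, 1090 and 1228 in the others, and its labels did not overlap (log2 difference -0.28 ± 0.19, SE; limma adjusted p = 0.93). Of 13 adaptors, 11 had a negative difference, with a median of -0.20, where 5115 of all 10786 genes had a negative one. The median of the adaptors was -0.27 within number 1 and -0.05 within number 4. Frs3, a docking protein of FGF receptors, had 67.7 and 59.3 normalized counts in the WT libraries and 32.7, 44.5 and 47.5 in the others. Of the 71 pathway genes with a mean of at least 50, it was the 1 with an unadjusted p under 0.05 in limma. Over all 10786 such genes the share was 1.24%. The log2 difference of Frs3 was -0.61 ± 0.23 (SE; limma adjusted p = 0.93).

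Other inhibitors and targets showed the same order of libraries in part. Dusp7, another ERK phosphatase, had 132 and 156 normalized counts in the WT libraries and 422, 300.3 and 168 in p75NTR-/- 1, 2 and 4. Its labels did not overlap, and it ran in the order of Spry1 (log2 difference 0.95 ± 0.42, SE; limma adjusted p = 0.93). Dusp4, a nuclear phosphatase, had 46.1 and 246 normalized counts in the WT libraries and 220, 151 and 262 in the others. Its low value was that of WT 1, as for Spry4, and without WT 1 its log2 difference passed from 0.94 to -0.25. Of 12 other inhibitors with a mean of at least 50, 6 had a positive and 6 a negative difference. Il17rd, an inhibitor of FGF signalling also called Sef, lay under that mean, at 0 to 59.9 normalized counts.

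Of 15 other ERK target genes with a mean of at least 50, 11 had a positive and 4 a negative difference, with a median of 0.27, where 5671 of all 10786 genes had a positive one. The labels did not overlap for 3 of the 15, all higher, and 7.76% of all genes were higher without overlap. Egr1, an immediate early transcription factor, had 1471 and 3451 normalized counts in the WT libraries and 3511, 3480 and 3867 in the others. WT 1 alone stood low, and the log2 difference of 0.68 ± 0.39 (SE; limma adjusted p = 0.93) was reduced to 0.067 without WT 1. Etv4, a relative of Etv5, was nearly level at 1029 and 1180 in the WT libraries and 1451, 1379 and 1184 in the others. Its labels did not overlap, p75NTR-/- 4 exceeding WT 4 by a few counts. Etv1, another relative, had 1056 and 938 in the WT libraries and 1304, 1081 and 972 in the others, and its labels overlapped. Myc and Ccnd1, named after their values were seen, had 452 and 2250 normalized counts in WT 1. Both were higher in the other 4 libraries, at 975 to 1667 for Myc and 8336 to 9953 for Ccnd1. Not all targets were lowest in WT 1. Fos had 331 normalized counts in p75NTR-/- 1, its lowest, and 1209 in p75NTR-/- 4, its highest, and Ets1 was lowest in WT 4 at 171.

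Promoters of 8 of the 10 genes were examined, in windows from 250 bases before to 50 bases after the start site (RefSeq, GRCm38.p6). The ETS motif CCGGAA was found, on either strand, in the windows of Egfr and Spry2 alone, while 14.9% of 32851 promoters hold it. TGACG, the core of the cAMP response element, and the AP-1 motif TGANTCA were found in no window, where 20.8 and 7.81% of all promoters hold them. The GC box GGGCGG was found in windows of Egfr, Etv5, Fgfr3, Spred1 and Spry1, against 35.7% of all promoters. Matches of different motifs did not overlap. The 250 bases before the start sites of Dusp6 (chr10:99262981-99263230, plus strand) and Spry1 (chr3:37639697-37639946, plus strand) are printed because these genes had close profiles. Capitals mark GC box or ETS motif matches, of which Spry1 has 1 GC box 60 bases before the start and Dusp6 has none.
Dusp6 promoter: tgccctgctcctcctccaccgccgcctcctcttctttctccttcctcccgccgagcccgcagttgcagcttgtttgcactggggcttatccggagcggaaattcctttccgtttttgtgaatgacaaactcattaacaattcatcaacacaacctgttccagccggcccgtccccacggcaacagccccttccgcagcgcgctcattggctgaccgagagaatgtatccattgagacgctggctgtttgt
Spry1 promoter: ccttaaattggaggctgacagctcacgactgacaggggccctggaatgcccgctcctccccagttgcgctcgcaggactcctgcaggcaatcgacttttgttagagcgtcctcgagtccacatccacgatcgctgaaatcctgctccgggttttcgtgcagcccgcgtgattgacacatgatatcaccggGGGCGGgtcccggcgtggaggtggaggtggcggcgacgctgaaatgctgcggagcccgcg
The 2 windows share none of the 4 motifs searched, and nothing follows from this about the factors that bind there.

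Markers of astrocytes, a cell type known to express Fgfr3, varied between the libraries. All 5 were listed, and their summed level was 1344 and 820 TPM in WT 1 and WT 4, and 612, 649 and 864 TPM in p75NTR-/- 1, 2 and 4. Gfap had 241 and 680 normalized counts in the WT libraries and 11.9, 1.20 and 746 in the others, and Aqp4 had 395 and 696 against 69.3, 114 and 566. Both were lowest in p75NTR-/- 1 and 2. S100b, with 1421 and 347 normalized counts in the WT libraries and 475, 369 and 410 in the others, stood high in WT 1 alone and was lowest in WT 4. Aldoc had 9882 and 5914 against 3622, 3931 and 5541, and Aldh1l1 had 23093 and 22171 against 16444, 19687 and 25549. The order of the libraries thus differed between the 5 markers. Markers of the oligodendrocyte lineage, 4 of 7 of them listed, summed to 172 and 93.1 TPM in the WT libraries and 55.4, 86.4 and 101 TPM in the others, with Sox10, Mbp and Mog not listed. Neuronal markers, 3 of 7 listed, summed to 629 to 979 TPM, of which Map2 alone had 617 to 966 TPM, while Tubb3 and Snap25 had 4.46 to 10.6 TPM. Their part in the differences of Fgfr3 and the other genes was not tested, and in such bulk libraries fewer cells of a type and less RNA per cell cannot be told apart.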

How the data were processed

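For 5 stranded mRNA libraries the authors ran Salmon 0.10.2 on the GRCm38.p6 transcripts of Ensembl, followed by DESeq2 1.22.0 in R 3.6.1 for normalization. The authors deposited as signal the count over the size factor, with 0.5 added, and 0.5 was subtracted here. In each library 100% of the values were then whole multiples of 1 step (tolerance 0.02 normalized counts). The authors' TPM columns were entered as a score, because repeated lines raise their sum above the TPM total. The authors' baseMean is a deposited score, at least 9.34 here, that serves only as the listing limit. It is not the mean of these 5 libraries, since 45 listed transcripts had no count in any of them. A gene that is not listed therefore has no value here, and its level in these libraries is not known. The deposited log2 fold change and p-values are the authors' own comparison and were not used. Of 22530 lines, 303 repeats were dropped, and the number of unused per-sample columns was 0.

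Values were summed per symbol. limma 3.58.1 (lmFit, eBayes; R 4.3.3) was run on log2(value + 1) over all 12588 gene sums and all 22227 transcripts, with all 5 libraries, no covariate and Benjamini-Hochberg adjustment. Calls used the criteria of the study's methods. On simulated data with 12588 genes this fit called 6, 31, 44 and 49 of 50 genes changed 2-, 4-, 8- and 16-fold. These counts were drawn independently for each gene, and 5.11% of unchanged genes had an unadjusted p under 0.05 in limma. In the real data 1.24% of the 10786 genes with a mean of at least 50 had one. The simulation lacks differences that libraries share across genes, so its rates may be too high for these data. Tables were made with pandas 2.3.3. Of the listed transcripts, 22199 were matched to GENCODE M21, and all 27 of these 10 genes were.

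The 10 genes, the lists and the alternatives were chosen with earlier results of these data known. Named were the 10 genes, their transcripts with a mean of at least 50 or with labels that do not overlap and the receptor transcripts of the study's lists, pathway genes with a mean of at least 50, labels that do not overlap and a fold change of at least 1.5, nearest relatives, and the 2 most similar profiles of 7 genes. Other transcripts are named to complete the receptor forms, and the 2 profiles nearest to Spry1 are named beside those of Dusp6. Some sequences and 1 gene of the lists are not reported here.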

Additional observations from a re-analysis of the deposited data

How the results depend on the processing

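No gene or transcript of the 10 was called under any alternative run: other pseudocounts (0.5 and 5), minimum means in the fit (10 and 50) or none for the call, TPM in place of normalized counts, an intensity trend, a replicate block, each library left out, quantile normalization and both libraries numbered 4 left out (the last 2 chosen after seeing the data). The number with an unadjusted p under 0.05 in limma ranged from 0 to 4 of the 10 genes, the 4 being reached without p75NTR-/- replicate 4 and without both libraries numbered 4, and from 0 to 7 of the 27 transcripts. The differences of Fgfr1, Egfr, Spry2 and Spred1 changed sign without WT replicate 1. With single libraries left out they ranged from -0.020 to 0.27, -0.53 to 0.29, -0.058 to 0.58 and -0.096 to 0.63, and that of Dusp4 ranged from -0.25 to 2.13. Those of Spry1 (0.84 to 1.54), Dusp6 (0.80 to 1.68), Spry4 (0.084 to 2.17), Etv5 (0.26 to 0.86), Fgfr3 (-0.99 to -0.43) and Fgfr2 (-1.09 to -0.37) kept their sign. Ranked by normalized counts per kilobase rather than TPM, Fgfr3 came 1st, Spry2 2nd, Fgfr1 3rd, Etv5 4th, Dusp6 6th and Spred1 7th. From TPM, the IIIb share of Fgfr3 was 5.19% in WT 1 and 11.8% in p75NTR-/- 2, since the short Fgfr3-212 weighs more per length.

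Replicate numbers 1 and 4 occur under both labels. With 2 such pairs and no stated meaning, the numbers were not taken to pair the libraries. Deviations from the label means correlated at 0.26 for number 1 and 0.48 for number 4 across genes, and at 0.48 for WT 1 with p75NTR-/- 2. The deviations of WT 1 and WT 4 mirror each other, so these values are not separate and cannot decide on a pairing. Over the 10786 genes the root mean square log2 difference was 0.22 within number 4 and 0.68 within number 1. With a replicate block the log2 differences were 1.13 for Spry1, 1.20 for Dusp6 and -0.82 for Fgfr3, and the block changed no call. The planned count tests and TMM scaling were not run, and all tests were kept on the normalized values. With 2 against 3 libraries the simulated fit called 6 of 50 genes changed 2-fold, which limits what can be read from a missing call. The simulated counts were drawn independently for each gene, so the rate in these data may be lower still.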
